A study of Homo sapiens with 6 samples.

Results

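The 10 genes described here encode chemokines and 1 chemokine receptor, and were chosen by name from the 34811 genes of the count table: IL8 (the older name of CXCL8), CXCL1, CXCL2, CXCL3, CXCL5, CXCL6, CXCL16, CCL20, CX3CL1 and CXCR4. All 10 have a row in the table, and 8 of them had enough reads to be tested. RNA-seq compared OV3/COX1KD cells, stable OVCAR-3 cells carrying the pRS HuSH-29 plasmid with an shRNA against COX-1, with OV3/SCR cells, which carry a scrambled shRNA in the same plasmid and are labelled wild-type for COX-1. OVCAR-3 is an established human ovarian carcinoma cell line, and all cells were selected with puromycin and grown in RPMI-1640 with serum, without any added stimulus. Each condition had 3 libraries, from separately harvested populations of a single clone, and effects of the clone and of the shRNA cannot be told apart in any value below.

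Chemokines are small secreted proteins that guide migrating cells through G protein-coupled receptors. IL8, CXCL1, CXCL2, CXCL3, CXCL5 and CXCL6 belong to the ELR CXC ligands, named after the amino acids glutamate, leucine and arginine in front of their paired cysteines, and they attract neutrophils and act on endothelium through the receptors CXCR1 and CXCR2. Their genes lie side by side on chromosome 4 and are classic targets of NF-κB, the transcription factor that inflammatory signals such as interleukin-1 and TNF switch on, and their mRNAs are short-lived. In ovarian cancer these ligands are found in tumor cells and ascites. CXCL16 and CX3CL1 differ from the others in being made as transmembrane proteins whose chemokine domain can be cut off the cell surface, CCL20 is the ligand of CCR6, and CXCR4 is the receptor of CXCL12.

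The 6 libraries held between 25291505 and 27391538 counts on genes, and 17309 genes passed the filter on low counts. No 2 libraries agreed within sampling noise: chi-square over its degrees of freedom was 1.71 to 5.35 within a condition and 37.7 to 49.8 across conditions. PTGS1, the gene of COX-1, had 713, 658 and 641 counts in OV3/SCR and 456, 486 and 501 in OV3/COX1KD. At the mRNA level 73.3% thus remained, a log2 fold change of -0.45 (edgeR FDR = 1.3e-06). The study reported a strong loss of COX-1 protein and less prostaglandin production in the knockdown cells, which these counts do not measure. All 9 markers of ovarian serous epithelium were detected, with a summed level of 4830 to 4870 CPM (TMM-scaled counts per 1e6) in OV3/SCR and 6330 to 6510 in OV3/COX1KD. Of the 9, 7 were higher in OV3/COX1KD and 2 lower at an FDR under 0.01 by edgeR. Over all genes tested, 25.8% were higher and 22.1% lower at that threshold. The 2 lower markers were PAX8, with 59.0% of its OV3/SCR level (edgeR FDR = 4.3e-13), and KRT7, with 90.6% (edgeR FDR = 1.0e-04). The 7 leukocyte markers in the table summed to 1.54 to 2.03 CPM in OV3/SCR and 0.976 to 1.76 in OV3/COX1KD. The 5 fibroblast markers summed to 10.9 to 11.6 CPM in OV3/SCR and 6.57 to 7.43 in OV3/COX1KD, mostly from COL1A1, and the 4 endothelial markers to 2.92 to 4.05 and 3.91 to 4.73. Of these 16 genes, 4 never exceeded 3 counts and 0 were at 0 in every library. The part of these markers in the results below was not tested. A count of 3, taken as the smallest detectable level, equals 0.113 to 0.120 CPM; this floor and all counting intervals leave out PCR duplication.

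The regulatory sequence that the 6 ELR CXC genes share is shown here because it is the NF-κB element of this family. The RefSeq promoter table, which gives 250 bases before and 50 after each start on GRCh38.p14, held entries for 8 of the 10 genes; CXCL16 and CX3CL1 had none. The longest run of letters common to the promoters of all 6 ELR CXC genes was GGAATTTCC, which is the known NF-κB site of this family. Without IL8 the common run was GGGAATTTCCC, which contains the shorter one. Of 35116 promoters of the same length in that table, 0.461% held GGAATTTCC and 0.0769% held GGGAATTTCCC on either strand. The stretches below were found again in GRCh37 and are given 5′ to 3′ on the coding strand, with GGAATTTCC in capitals. For CXCL3 a shorter stretch is shown, which lies within the gene as annotated in GENCODE 44.
IL8, chr4:74606154-74606233, plus strand: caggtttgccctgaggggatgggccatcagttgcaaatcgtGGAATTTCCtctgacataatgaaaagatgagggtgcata
CXCL1, chr4:74734991-74735070, plus strand: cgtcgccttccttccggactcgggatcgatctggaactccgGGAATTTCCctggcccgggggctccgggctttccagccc
CXCL2, chr4:74964951-74965030, minus strand: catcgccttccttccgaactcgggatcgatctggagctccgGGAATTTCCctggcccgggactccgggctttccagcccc
CXCL3, chr4:74904466-74904495, minus strand: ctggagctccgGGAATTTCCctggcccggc
CXCL5, chr4:74864446-74864525, minus strand: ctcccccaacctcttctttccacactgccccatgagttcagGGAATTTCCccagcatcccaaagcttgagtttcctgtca
CXCL6, chr4:74702265-74702344, plus strand: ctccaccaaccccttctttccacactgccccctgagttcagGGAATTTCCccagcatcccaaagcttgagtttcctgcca

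The capitals begin 91 bases before the RefSeq start in IL8, 90 in CXCL5, 89 in CXCL6, 78 in CXCL1 and CXCL3 and 77 in CXCL2. Over 80 bases aligned on the capitals without gaps, CXCL5 and CXCL6 were identical at 95% of positions and CXCL1 and CXCL3 at 91.2%. IL8 shared 27.5% to 36.2% of positions with the other 5. The capitals match in every pair by construction and are counted in these shares. The AP-1 letters TGANTCA, searched on both strands, were found in the promoter of IL8 alone among the 8 genes, at -137 from its start, against 7.71% of all promoters. The promoter of CCL20 and the 3 promoters listed for CXCR4 held no GGAATTTCC on either strand. A match of letters is a description only.

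Per exon length, CXCL1 and IL8 had the highest levels of the ELR CXC ligands in the control cells, and both fell in OV3/COX1KD cells. IL8 (ENSG00000169429, chromosome 4 of GRCh37 from 74606236 to 74609433) encodes interleukin-8 and had 207, 153 and 141 counts in OV3/SCR against 9, 5 and 11 in OV3/COX1KD. Every OV3/COX1KD library was far below every OV3/SCR library. The level went from 6.36 ± 1.23 CPM (SD, n = 3) to 0.323 ± 0.111 (SD, n = 3), so that 5.08% remained, a log2 fold change of -4.27 ± 0.24 (SE; edgeR FDR = 8.2e-12). DESeq2 with its normal prior gave -3.36. Ordered by edgeR estimate from the lowest, IL8 stood at place 8 of the 17309 genes tested. Summed over libraries, 501 counts against 25 gave a ratio of 19.6 with a 95% counting interval from 13.1 to 30.6.

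CXCL1 (ENSG00000163739, chromosome 4 from 74735110 to 74737025), also known as GROα, had 227, 217 and 190 counts in OV3/SCR and 75, 59 and 63 in OV3/COX1KD. The conditions did not overlap, yet a clear signal remained in the knockdown cells. The level fell from 8.06 ± 0.626 CPM (SD, n = 3) to 2.57 ± 0.358 (SD, n = 3), a log2 fold change of -1.65 ± 0.12 (SE; edgeR FDR = 6.9e-10). In these libraries the loss was unequal between these neighbours. The ratio of CXCL1 to IL8 counts was 1.10, 1.42 and 1.35 in OV3/SCR and 8.33, 11.8 and 5.73 in OV3/COX1KD. An exact two-sided permutation test of this ratio gave p = 0.10. That is the smallest value that 3 libraries against 3 allow, so this test could not decide the question. The 95% intervals of the log2 fold changes, -4.77 to -3.78 for IL8 and -1.91 to -1.39 for CXCL1, did not overlap. This is a description only, since the intervals cover populations of 1 clone per condition. IL8 also passed the filter in 3 OV3/SCR but only 1 OV3/COX1KD library, and so was tested through the condition where it is high.

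CXCL2 and CXCL3, the close relatives of CXCL1 known as GROβ and GROγ, were scarcer. CXCL3 (ENSG00000163734, chromosome 4 from 74902306 to 74904524) had 48, 44 and 40 counts in OV3/SCR and 8, 13 and 14 in OV3/COX1KD. Its level fell from 1.68 ± 0.127 CPM (SD, n = 3) to 0.454 ± 0.118 (SD, n = 3), a log2 fold change of -1.87 ± 0.26 (SE; edgeR FDR = 3.5e-06). CXCL2 (ENSG00000081041, chromosome 4 from 74962757 to 74964913) had 46, 43 and 56 counts in OV3/SCR and 24 in each OV3/COX1KD library. In CXCL2 50.7% of the level was kept, a log2 fold change of -0.98 ± 0.21 (SE; edgeR FDR = 5.4e-04). In both genes the lowest OV3/SCR library lay above the highest OV3/COX1KD library. The 3 GRO transcripts resemble each other, which can affect how reads are assigned: 13.4% of the 50-base words of CXCL2 transcripts and 6.01% of those of CXCL3 occur in another gene, mostly each other, against 4.57% for CXCL1 and 0% for IL8. At 100 bases the shares were 5.34%, 3.27%, 0% and 0%, and the read length is not given in the sources used here.

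CXCL5 and CXCL6 were practically absent from these cells although their promoters carry the same NF-κB letters. CXCL5 (ENSG00000163735, chromosome 4 from 74861359 to 74864394), a neutrophil attractant also called ENA-78, had 0, 0 and 0 counts in OV3/SCR and 0, 1 and 0 in OV3/COX1KD. CXCL6 (ENSG00000124875, chromosome 4 from 74702357 to 74714781), also called GCP-2, had 4, 1 and 0 counts in OV3/SCR and 0 in each OV3/COX1KD library. Only 1 of these 12 values was above the 3 counts taken as detectable, so neither gene was tested. With all genes kept, the edgeR FDR was 0.544 for CXCL5 and 0.119 for CXCL6, and a difference in either gene was not detectable at this depth.

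**Figure D1:**
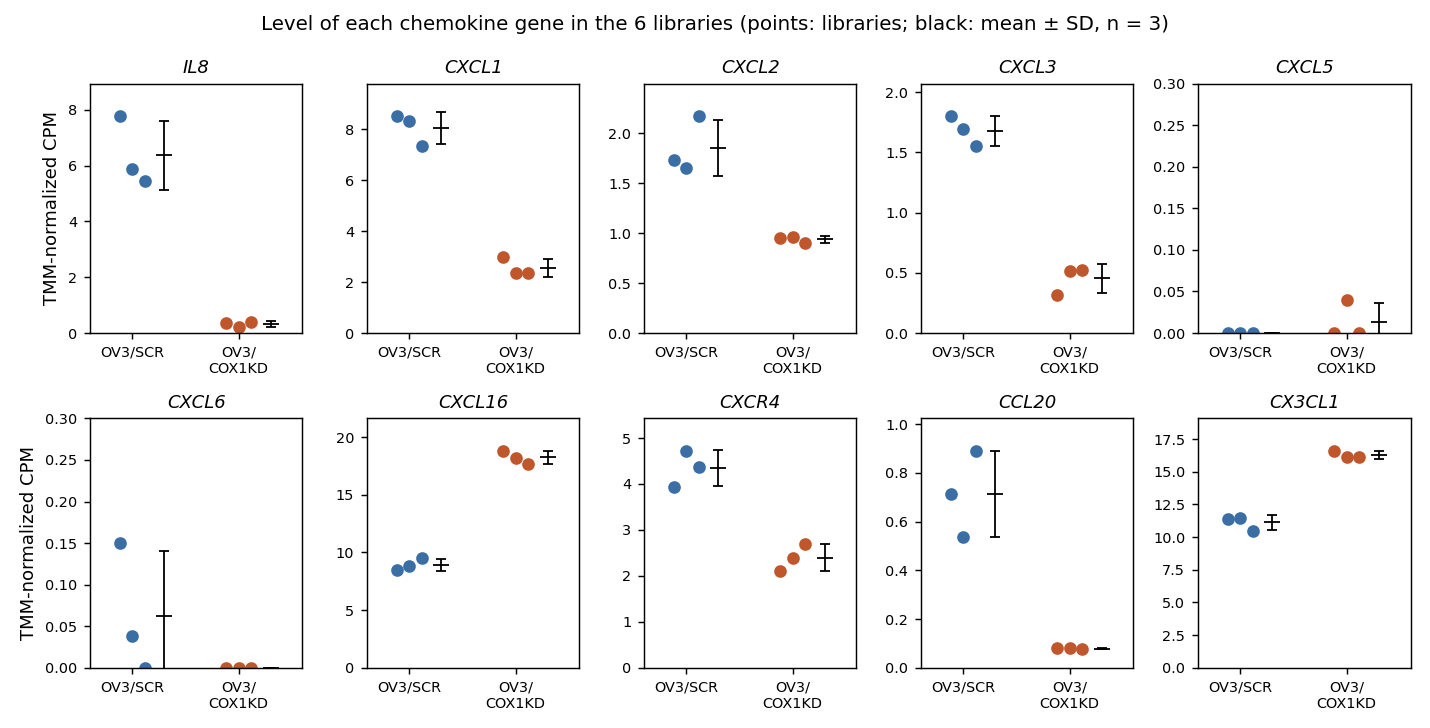
Level of each of the 10 genes in TMM-normalized CPM (vertical axis, from 0, its own scale in each panel) in the 3 OV3/SCR libraries (blue) and the 3 OV3/COX1KD libraries (orange), with the mean and SD in black. IL8 drops from 6.36 to 0.323 CPM on average, CXCL16 and CX3CL1 are higher in OV3/COX1KD, and CXCL5 and CXCL6 stay near 0.

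Added together, the ELR CXC ligands made up 532, 458 and 427 counts in OV3/SCR and 116, 102 and 112 in OV3/COX1KD. The pool shrank from 18.0 ± 1.76 CPM (SD, n = 3) to 4.29 ± 0.281 (SD, n = 3), which is given as a description without a test. Its make-up shifted as well. IL8 contributed 35.1% ± 3.29 of the pool (SD, n = 3) in OV3/SCR and 7.49% ± 2.47 in OV3/COX1KD, and CXCL1 44.8% ± 2.38 and 59.6% ± 4.46. CXCL2 went from 10.4% ± 2.39 to 21.9% ± 1.47, and CXCL3 contributed 9.33% ± 0.294 and 10.7% ± 3.31, a difference within the spread between libraries. Divided by exon length, merged over all annotated isoforms, the share of IL8 was 23.3% in OV3/SCR and 4.31% in OV3/COX1KD. That of CXCL1 was 56.5% and 65.0%. Among the receptors of this pool, CXCR1 had 1 count in the 6 libraries together. CXCR2 had 6, 6 and 9 counts in OV3/SCR and 3, 3 and 1 in OV3/COX1KD. Both had too few counts to be tested.

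**Figure D2:**
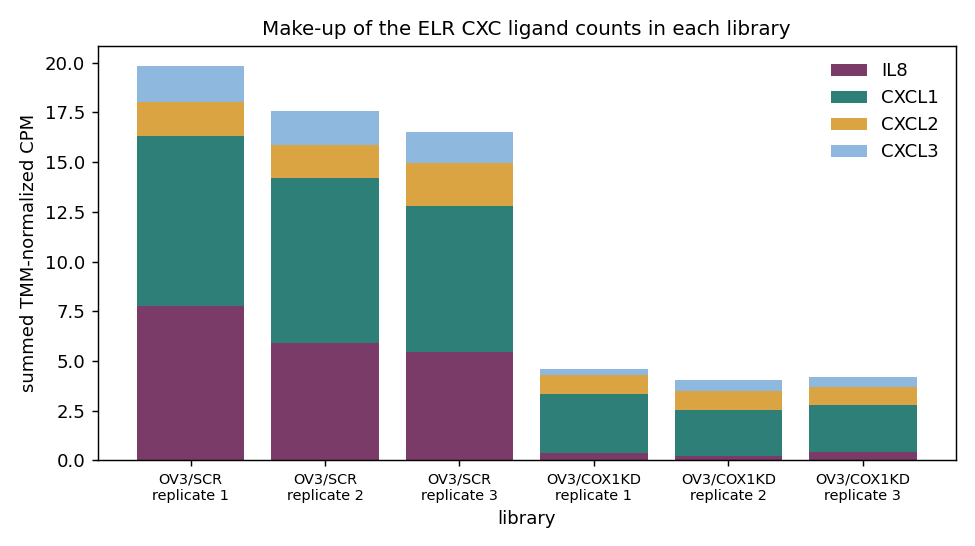
Summed level of IL8, CXCL1, CXCL2 and CXCL3 in each library, as stacked bars in TMM-normalized CPM. The bars reach at least 16.5 CPM in OV3/SCR and at most 4.61 in OV3/COX1KD, where CXCL1 is the tallest segment and IL8 nearly vanishes.

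Outside the cluster, CCL20 was also far lower in OV3/COX1KD. CCL20 (ENSG00000115009, chromosome 2 from 228670455 to 228682280), which attracts dendritic cells and lymphocytes that carry CCR6, had 19, 14 and 23 counts in OV3/SCR and 2 in each OV3/COX1KD library. The counts of the knockdown cells lay within the detection limit in all 3 libraries, so the ratio of 9.13 carries a wide 95% counting interval from 3.94 to 25.9. The edgeR log2 fold change was -3.11 (standard error 0.46, FDR = 8.8e-06), and -1.39 in DESeq2 with its normal prior, so the size of the difference depends on the fit. Its receptor gene CCR6 had 1 count in the 6 libraries together.

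CXCR4 (ENSG00000121966, chromosome 2 from 136871919 to 136876747) is the only receptor among the 10 genes and is known for steering tumor cells toward CXCL12. It had 105, 123 and 113 counts in OV3/SCR and 53, 60 and 72 in OV3/COX1KD, again without overlap. The level fell from 4.34 ± 0.391 CPM (SD, n = 3) to 2.40 ± 0.298 (SD, n = 3), a log2 fold change of -0.85 ± 0.14 (SE; edgeR FDR = 3.8e-05). CXCL12 itself had between 0 and 2 counts per library.

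The transmembrane chemokines went the other way. CXCL16 (ENSG00000161921, chromosome 17 from 4636828 to 4643223), which is also a scavenger receptor for oxidised lipoprotein, had 225, 229 and 246 counts in OV3/SCR and 473, 456 and 472 in OV3/COX1KD. Its level rose from 8.92 ± 0.549 CPM (SD, n = 3) to 18.2 ± 0.540 (SD, n = 3), a log2 fold change of 1.03 ± 0.072 (SE; edgeR FDR = 2.3e-10). On the opposite strand, exons of MED11 and ZMYND15 cover 2.72% and 3.44% of its exon length. Whether the counting used strand is not given in the sources used here.

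CX3CL1 (ENSG00000006210, chromosome 16 from 57406389 to 57418956), also known as fractalkine, had 303, 299 and 272 counts in OV3/SCR and 418, 403 and 428 in OV3/COX1KD. The step was smaller than for CXCL16, from 11.1 ± 0.522 CPM (SD, n = 3) to 16.3 ± 0.309 (SD, n = 3), but every knockdown library exceeded every control library. The log2 fold change was 0.55 (standard error 0.068, edgeR FDR = 1.1e-06). Neither gene reached the 2.5-fold limit used in the study's methods.

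Of the 8 tested genes, 6 were lower and 2 higher in OV3/COX1KD at an FDR under 0.01. Over all 17309 genes tested, 47.9% passed that threshold, 22.1% lower and 25.8% higher. Among the 8004 genes with a mean log2 CPM in the same range as the 8, the share was 32.5%, with 17.8% lower. With the added fold change above 2.5, 4 of the 8 were called, all lower (IL8, CCL20, CXCL3 and CXCL1), against 2.34% of all genes lower, 1.58% higher and 3.92% in either direction. The count of 4 was 1 when glmTreat tested against the 2.5-fold limit itself, and 1 with at least 10 counts in every library, where IL8, CXCL3 and CCL20 were not tested. In the same range of mean log2 CPM these shares were 3.79% lower and 6.28% in either direction. IL8, CXCL3 and CCL20 passed the filter through their OV3/SCR libraries, since 1, 2 and 0 of the 3 OV3/COX1KD libraries reached its level of 0.389 CPM, and the counts over tested genes are therefore no support for a pattern. CXCL1, CXCL2, CXCR4, CXCL16 and CX3CL1 passed it in all 6 libraries. The conditions did not overlap in any of the 8 genes, as in 63.2% of all genes tested.

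**Figure D3:**
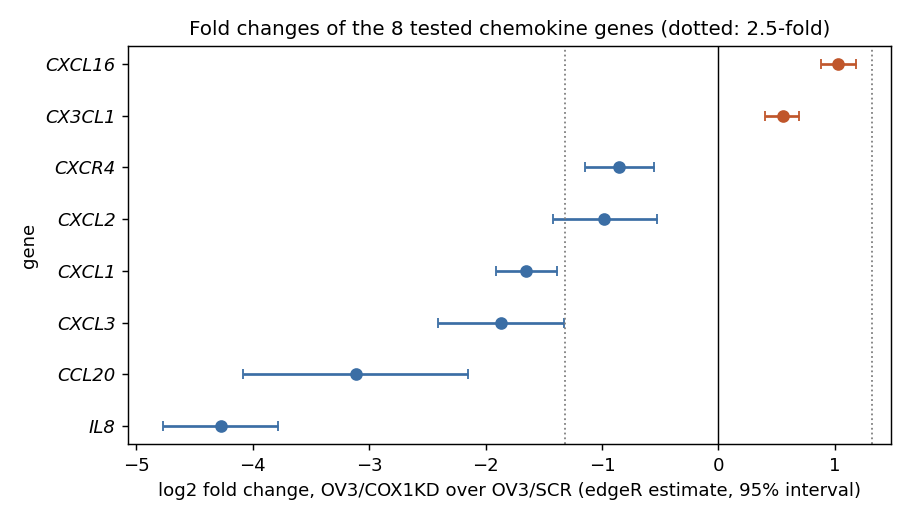
Log2 fold change of the 8 tested genes, OV3/COX1KD over OV3/SCR, with the 95% interval of the edgeR estimate as bars; dotted lines mark a fold change of 2.5. IL8 at -4.27 and CCL20 at -3.11 lie lowest, and CXCL16 at 1.03 and CX3CL1 at 0.55 are the only genes on the right of 0.

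Compared per kilobase of exon, the order of the levels changed between the conditions. Exon length here merges the exons of all annotated isoforms of a gene. It was 2219 bases for CXCL3, the whole annotated gene, and 2588 for IL8, against 1362 for CXCL1 and 1398 for CXCL2. Which isoforms these cells use was not tested, so the order between genes depends on this annotation. In OV3/SCR, CXCL1 stood highest at 5.92 ± 0.460 CPM per kilobase (SD, n = 3), followed by CXCL16 at 3.19 ± 0.197, IL8 at 2.46 ± 0.476 and CX3CL1 at 1.87 ± 0.0875. CXCR4, between 1.36 and 1.63, and CXCL2, between 1.18 and 1.55, overlapped, with CXCL3 at 0.757 ± 0.0572 and CCL20 at 0.447 ± 0.111 below them. In OV3/COX1KD, CXCL16 led at 6.53 ± 0.193, ahead of CX3CL1 at 2.73 ± 0.0519 and CXCL1 at 1.88 ± 0.263. CXCR4 at 0.827 ± 0.103 and CXCL2 at 0.671 ± 0.0227 followed, CXCL3 at 0.205 ± 0.0532 and IL8 at 0.125 ± 0.0428 overlapped, and CCL20 was lowest of the tested genes at 0.0490 ± 0.00166. IL8 thus moved from place 3 to place 7.

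Because the ELR CXC genes are neighbours, the genes around them on chromosome 4 were examined for the same direction. From the start of IL8 to the start of CXCL2 the cluster spans 358.7 kb. Within 2 Mb on either side, 18 other genes were tested, of which 6 were higher and 3 lower at an FDR under 0.01, with a median log2 fold change of 0.06 and a range from -2.59 to 1.84. The number called is close to what the 47.9% over all genes tested would give. BTC, which encodes the EGF receptor ligand betacellulin, rose from 19.7 ± 0.341 to 70.5 ± 0.773 CPM (SD, n = 3), a log2 fold change of 1.84 ± 0.044 (SE; edgeR FDR = 2.9e-17). PARM1, an androgen-regulated mucin-like gene, rose as well, by 1.09 on the log2 scale (standard error 0.074, edgeR FDR = 1.6e-10). MTHFD2L, a mitochondrial folate enzyme and the next tested gene after CXCL2, had a log2 fold change of -0.23 (edgeR FDR = 0.00791). EREG, the epiregulin gene a little further on, had a log2 fold change of 0.24 with an FDR of 0.403 by edgeR. On the other side, AFP, the α-fetoprotein gene, had 47, 47 and 49 counts in OV3/SCR and 9, 7 and 7 in OV3/COX1KD, a log2 fold change of -2.59 ± 0.27 (SE; edgeR FDR = 7.3e-08). AFP passed the filter in 3 OV3/SCR and 0 OV3/COX1KD libraries, so that it was tested only through the condition where it is high, and it is 1 of the 3 lower genes above. Its level is under that set for named genes, and it was named after its values were seen. RASSF6, the nearest tested gene before IL8, had a log2 fold change of -0.68 (edgeR FDR = 0.0492) and was not called. The remaining lower gene, ADAMTS3, had -0.63 (edgeR FDR = 5.9e-08). On the same side COX18 and ANKRD17 were higher, by 0.36 (edgeR FDR = 5.5e-04) and 0.16 (0.00108). RASSF6, ADAMTS3 and COX18 were likewise named after their values were seen.

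The list of 16 neighbours by name had 11 tested genes, 4 higher and 2 lower (AFP and MTHFD2L). Over all genes tested 47.9% were called, 25.8% higher and 22.1% lower, and the 6 called are close to what that would give. AFP was tested only through OV3/SCR, as given above. The median log2 fold change was 0.11 against -0.009 over all genes tested. The list's count of 6 was 3 without OV3/SCR replicate 1 and 3 without OV3/COX1KD replicate 3. MTHFD2L lost its call without OV3/SCR replicate 1 (edgeR FDR = 0.0159) or 3 (0.0841) and without OV3/COX1KD replicate 1 (0.0354) or 3 (0.0291). ANKRD17, with a log2 fold change of 0.16 (edgeR FDR = 0.00108), lost its call without OV3/SCR replicate 1 (0.0121) or OV3/COX1KD replicate 3 (0.0104), and with total count scaling (0.0481). DESeq2 gave MTHFD2L an adjusted p of 0.0176.

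**Figure D4:**
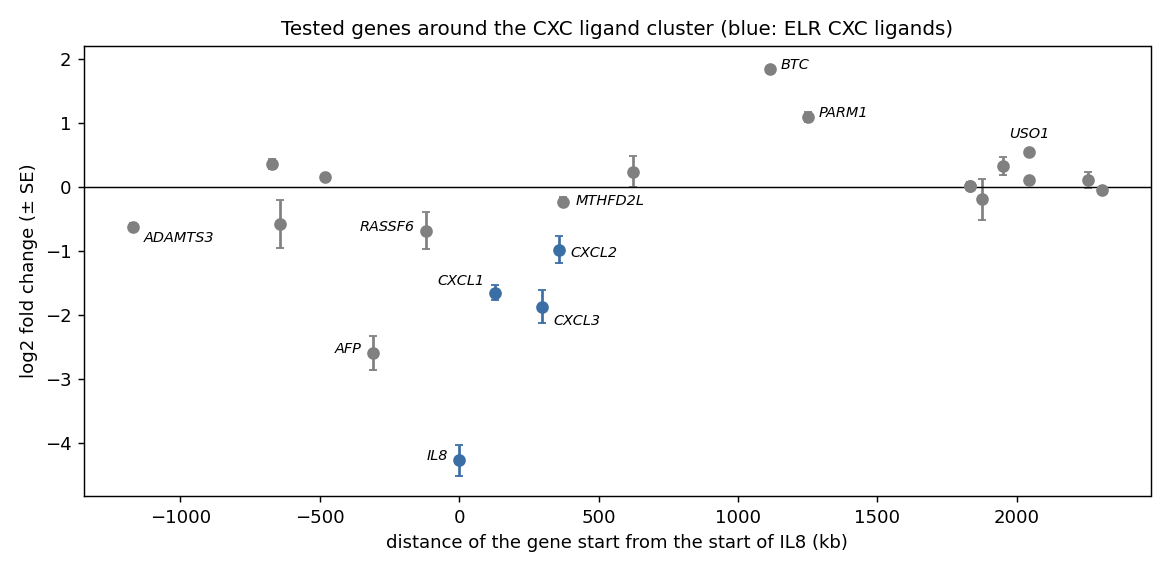
Log2 fold change (vertical axis, bars are the standard error) of the tested genes around the cluster, against the distance of their start from the start of IL8 in kb. The 4 tested ELR CXC ligands (blue) lie between -4.27 and -0.98, while the other genes (grey) scatter from -2.59 to 1.84 around a median of 0.06.

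The rest of the chemokine family was mostly silent. None of the 7 other CXC ligands in the table, CXCL10, CXCL11 and CXCL12 among them, was counted often enough to be tested by edgeR. Without the filter, the smallest FDR among them was 0.402. Of the 10 CC and C ligands in the table apart from CCL20, 3 were tested. By edgeR, 1 of the 3 was called at an FDR under 0.01, where 47.9% of all genes tested were called. That gene was CCL28, a chemokine of mucosal epithelium, with 2955, 2790 and 2771 counts in OV3/SCR and 6337, 6503 and 7001 in OV3/COX1KD. It rose from 108 ± 2.15 to 258 ± 5.64 CPM (SD, n = 3), a log2 fold change of 1.25 ± 0.032 (SE; edgeR FDR = 6.8e-17). The other tested ligands, CCL16 and CCL22, had log2 fold changes of -0.73 (edgeR FDR = 0.0830) and 0.13 (0.790). CCL16 passed the filter in 3 OV3/SCR libraries but only 1 OV3/COX1KD library.

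Of 17 chemokine receptor genes in the table besides CXCR4, 6 were tested and 2 were lower in OV3/COX1KD, against 22.1% of all genes tested. CXCR6, the receptor of CXCL16, had 34, 39 and 37 counts in OV3/SCR and 13, 19 and 4 in OV3/COX1KD, a log2 fold change of -1.57 ± 0.33 (SE; edgeR FDR = 4.2e-04), the direction opposite to that of its ligand. Its mean log2 CPM of 0.02 is under the level set for named genes, and it is named here to complete the count. CXCR6 passed the filter in 3 OV3/SCR but only 2 OV3/COX1KD libraries, so it was tested through the condition where it is high. The count of lower receptors is therefore no support for a pattern. CCBP2, the decoy receptor for CC chemokines now called ACKR2, had a log2 fold change of -0.25 (edgeR FDR = 0.00501), which lost its call without OV3/SCR replicate 2 (0.0226) or 3 (0.0278), without OV3/COX1KD replicate 3 (0.0258) without a filter (0.0141) and in DESeq2 (0.0213). The count of 2 was 1 without OV3/SCR replicate 3 and 1 without OV3/COX1KD replicate 3.

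Of 6 genes for receptor kinases and arrestins, which switch off chemokine receptors, 3 were higher and none was lower by edgeR at an FDR under 0.01, and 1 of the 3 genes for proteases that cut the ligands was higher. Over all genes tested 47.9% were called in either direction, and the numbers called in these small lists are near that share. The 3 of 6 higher are above the 25.8% of all genes tested that were higher, which is given as a description without a test. ARRB2, the gene of β-arrestin-2, rose from 19.5 ± 0.610 to 34.7 ± 0.444 CPM (SD, n = 3), by 0.83 on the log2 scale (standard error 0.051, edgeR FDR = 4.2e-11), and ARRB1 by 0.54 (standard error 0.071, edgeR FDR = 2.0e-06). The third, the receptor kinase gene GRK6, had a log2 fold change of 0.16 (edgeR FDR = 0.00632). GRK6 lost its call without OV3/SCR replicate 1 (0.0377), 2 (0.0110) or 3 (0.0157), without OV3/COX1KD replicate 1 (0.0214) or 3 (0.0287), with total count scaling (0.148), with at least 10 counts in every library (0.0128) and in DESeq2 (0.0336). ADAM17, a protease that releases the membrane-bound chemokines, rose from 70.4 ± 2.19 to 85.3 ± 2.02 CPM (SD, n = 3), by 0.28 on the log2 scale (standard error 0.037, edgeR FDR = 2.9e-06). ADAM10, which also cuts CXCL16 and CX3CL1, had a log2 fold change of 0.06 (edgeR FDR = 0.112), and the count of 1 called among the 3 proteases became 2 without OV3/COX1KD replicate 2.

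Among the inputs that induce ELR CXC ligands, the interleukin-1 receptor genes changed most. IL1R1, the signalling receptor of interleukin-1, was counted 1150, 1173 and 1147 times in OV3/SCR and 148, 108 and 136 times in OV3/COX1KD. Its level fell from 44.2 ± 0.952 to 5.10 ± 0.785 CPM (SD, n = 3), a log2 fold change of -3.11 ± 0.075 (SE; edgeR FDR = 3.0e-17). IL1R2, the decoy receptor of the same cytokine, fell by 2.51 on the log2 scale (standard error 0.11, edgeR FDR = 2.1e-13). IL1RAP, the shared accessory chain, rose instead, from 45.9 ± 1.57 to 97.9 ± 6.30 CPM (SD, n = 3), a log2 fold change of 1.09 ± 0.046 (SE; edgeR FDR = 1.2e-13). The cytokine genes themselves were scarce, with 1 to 5 counts per library for IL1B, 2 to 9 for IL1A and 0 to 2 for TNF. In all, 13 of the 16 genes of this list were tested, 3 higher and 6 lower, with a median log2 fold change of -0.16, where 25.8% of all genes tested were higher and 22.1% lower. The adaptor kinase gene IRAK4 had a log2 fold change of -0.29 (edgeR FDR = 0.00257) and lost its call without OV3/SCR replicate 2 (0.0311) and without OV3/COX1KD replicate 1 (0.0114) or 3 (0.0177).

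All 14 genes of the NF-κB list were tested, and 7 were lower and none higher in OV3/COX1KD by edgeR at an FDR under 0.01, with a median log2 fold change of -0.19. The share called was close to that of all genes tested (47.9%, of which 22.1% lower and 25.8% higher). TNFAIP3, which encodes the feedback inhibitor A20 and is itself an NF-κB target, fell from 10.2 ± 0.562 to 2.36 ± 0.187 CPM (SD, n = 3), by 2.11 on the log2 scale (standard error 0.11, edgeR FDR = 3.5e-12). NFKB2 and RELB, the subunits of the non-canonical pathway, fell by 0.70 (standard error 0.035, edgeR FDR = 1.7e-12) and 0.68 (standard error 0.066, edgeR FDR = 3.5e-08), and IKBKG, the scaffold of the IκB kinase, by 0.55 (standard error 0.063, edgeR FDR = 3.3e-07). NFKB1 and RELA, the canonical subunits, had log2 fold changes of 0.03 and -0.04, with FDRs of 0.563 and 0.305 by edgeR. The study had drawn attention to this pathway in the same libraries, so its direction is not independent evidence. The study also named CHUK and MAP3K14 as lower. Here they had log2 fold changes of -0.16 (edgeR FDR = 0.00292) and -0.25 (0.0414, not called). In nuclear extracts the study reported less RelB protein and, to a lesser extent, less RelA, which counts of mRNA do not measure.

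Of the 9 AP-1 and C/EBP genes, whose proteins act beside NF-κB on these promoters, 2 were higher and 5 lower, against 25.8% and 22.1% of all genes tested, with a median log2 fold change of -0.22. FOSL1, 1 of the 5 lower genes, passed the filter in 3 OV3/SCR and 0 OV3/COX1KD libraries. It was thus tested only through the condition where it is high, and it is named for this limit alone. JUN fell from 69.2 ± 3.59 to 29.7 ± 1.17 CPM (SD, n = 3), by 1.22 on the log2 scale (standard error 0.048, edgeR FDR = 4.5e-14), and JUNB by 0.48 (standard error 0.048, edgeR FDR = 5.9e-08). FOS rose by 1.01 (standard error 0.10, edgeR FDR = 5.3e-08) and CEBPB by 0.53 (standard error 0.031, edgeR FDR = 1.7e-11). The genes for proteins that control the decay of AU-rich chemokine mRNAs were all 8 tested, 2 higher and 4 lower, against the same background shares, with a median of -0.10. ZC3H12A, the gene of the ribonuclease regnase-1, fell by 1.07 on the log2 scale (standard error 0.11, edgeR FDR = 7.3e-08), and ZFP36, the gene of tristetraprolin, by 0.47 (standard error 0.046, edgeR FDR = 3.7e-08). MAPKAPK2, the kinase that restrains tristetraprolin, fell by 0.33 (standard error 0.053, edgeR FDR = 2.7e-05), and ZFP36L1 rose by 0.28 (standard error 0.030, edgeR FDR = 1.2e-07).

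**Figure D5:**
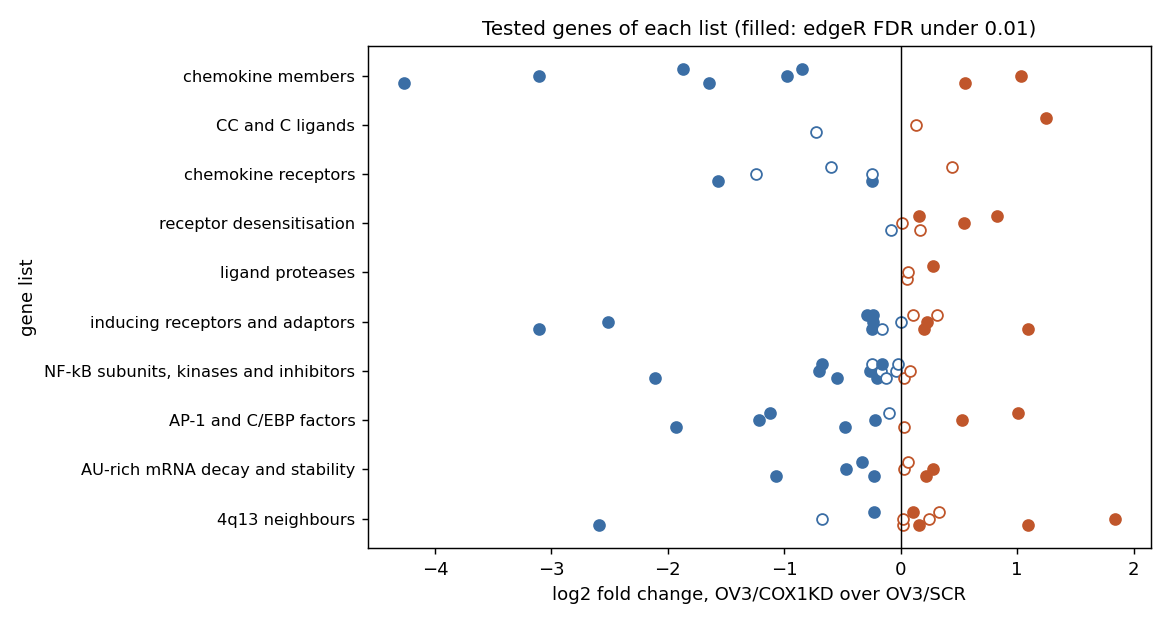
Log2 fold change of every tested gene in the chemokine set and in 9 gene lists of the pathway, OV3/COX1KD over OV3/SCR; each point is a gene, filled at an edgeR FDR under 0.01, blue for lower and orange for higher. The NF-κB list has 7 filled points among 14 tested genes, all on the left of 0. The receptor desensitisation list has 3 among 6, all on the right. Over all genes tested, 47.9% passed that threshold, 25.8% higher and 22.1% lower. Some other lists, such as those of inducing receptors and of mRNA decay, have filled points on both sides.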

How the data were processed

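Raw counts per gene, which the authors made with HTSeq from TopHat2 2.0 alignments to hg19 (GRCh37), were used as deposited; the annotation and strand setting are not given in the sources used here. Libraries came from total RNA with a TruSeq kit. In R 4.3.3 with edgeR 4.0.16, all 6 libraries were scaled by TMM and filtered by filterByExpr. The quasi-likelihood test (glmQLFTest) of OV3/COX1KD against OV3/SCR used Benjamini-Hochberg adjustment over all 17309 genes kept. Standard errors are the log2 fold change divided by the square root of F. The FDR threshold of 0.01 and the fold change of 2.5 follow the study's methods. P-values describe populations of 1 clone per condition. The genes and lists were chosen with earlier results of these data known, which makes them no independent support. Named genes are the 10 chosen ones and, per list, at most 4 called genes, those with the largest changes and a mean log2 CPM not under 1. Further listed genes were named for their role after their values were seen. Coordinates, exon lengths and transcript words came from GENCODE 44 on GRCh37, where 33556 of 34811 genes had an entry. Exon length is the merged length of the exons of all isoforms of a gene. Alternatives were other scalings and filters, DESeq2 1.42.0, a replicate block, glmTreat and leaving out each library. On simulated counts for this comparison with 17309 genes, the test recovered 69 of 70 genes changed by 1.5 and 41 of 63 changed by 0.5 on the log2 scale, with 2 false calls. The simulated counts had a common dispersion for all genes, few changed genes and no clone effect. The false calls are therefore not the error rate of this comparison.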

Additional observations from a re-analysis of the deposited data

How the results depend on the processing

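At an FDR under 0.01 against no change, each of the 8 tested genes kept its direction and its call in every alternative that could test it; calls above 2.5-fold did not all hold. IL8 ranged from -4.49 to -3.36, CCL20 from -3.28 to -1.39, CXCL3 from -1.99 to -1.37, CXCL1 from -1.77 to -1.54, CXCL2 from -1.05 to -0.78, CXCR4 from -0.95 to -0.76, CXCL16 from 0.95 to 1.08 and CX3CL1 from 0.47 to 0.57 on the log2 scale. With at least 10 counts in every library, IL8, CXCL3 and CCL20 were no longer tested, so that 5 chemokine genes were called, 1 of them above 2.5-fold, and the ELR list had 2 called genes. With glmTreat against 2.5-fold, 1 was called instead of 4; the cause was not tested. The receptor list had 1 called gene instead of 2 with 10 counts in every library and in DESeq2 with or without its prior, and 1 to 3 when libraries were left out. Over the same left-out libraries the protease list had 1 to 2 and the 4q13 list 3 to 7. Per exon length, the shares of IL8 were 23.3% and 4.31% and those of CXCL1 56.5% and 65.0%. The labels speak of replicate pairs but tie no number to a shared day, and same-numbered libraries deviated with correlations of 0.0045, 0.042 and 0.009, so the numbers were not taken as pairs. The replicate block called 8 chemokine genes and 8233 genes in all, against 8293, and not every library correlated best with its own number.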
